A study of Mus musculus with 4 samples.

Results

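The 34 genes described here encode the ion channels, calcium release channels, pumps and exchangers of vascular muscle. They were chosen by name, and the data for them are all peaks of the transcription factor NR1D1 that touched the annotated gene or the 10 kb on either side of it. All 34 were found among 21887 protein-coding genes on chromosomes 1 to 19, X and Y. NR1D1 was mapped by CUT&Tag, in which an antibody guides a transposase that cuts out and tags the DNA beside the bound protein, in primary smooth muscle cells cultured from the aorta of wild-type mice. The cells, grown in medium with serum, had received vasostatin-2, a peptide cut from chromogranin A, or phosphate-buffered saline (PBS), each for 24 h. The labels give no dose of the peptide. Each treatment has 1 NR1D1 library. A control IgG library of each treatment is also labelled and was not analysed here. The labels give the same batch for all and say nothing of the age, sex or number of the mice.

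Replicates are lacking, so no SD can be given and the treatment was not tested. Differences between the lists compare 2 libraries. Intervals cover counting error only. The vasostatin-2 list held 8816 peaks and the PBS list 7377, with a median of 7 and 8 fragments at the summit, and the vasostatin-2 library was 1.32 times as deep by the background in the peak values. Of 8 smooth muscle marker genes 3 had a peak in the vasostatin-2 list and 4 in the PBS list. From the shares of genes of like length 2.38 and 2.54 would be counted. Myh11, Tagln and Lmod1 had a peak in both lists and Smtn in the PBS list alone, while Acta2, Cnn1, Des and Myocd had none. A peak list does not measure expression, so these markers do not check the cell type.

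NR1D1 (REV-ERB alpha) is a nuclear receptor and a repressor within the circadian clock. It binds the sequence AGGTCA, alone after an AT-rich stretch or as a pair, and can also reach DNA through other factors. Arterial smooth muscle contracts when calcium rises in the cytosol. Calcium enters mainly through voltage-gated L-type channels and through store-operated and other cation channels, and is released from the sarcoplasmic reticulum by inositol trisphosphate and ryanodine receptors. Potassium channels hyperpolarise the membrane and so close the L-type channels, while pumps and the sodium-calcium exchanger remove calcium.

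A peak covered a listed promoter in 3 of the 27 genes that had one listed, Atp2b1, Stim1 and Orai1. The sequences before those starts are shown because they carry the listed promoter part of the data. RefSeq (GRCm38.p6, the assembly of mm10) lists 34 promoter windows for 27 of the genes, each 250 bases before to 50 after a start. Of these 27 genes 1 (Atp2b1) had a vasostatin-2 peak over such a window and 3 had a PBS peak. Of all 17492 listed coding genes 8.42% and 13.4% did. The other 7 genes, Itpr1 among them, were not in the promoter list used and could not be scored. Each sequence is the 250 bases before the start on the plus strand, and capitals mark the bases inside the PBS peak. The windows are chr10:98914392-98914641 for Atp2b1, chr7:102267569-102267818 for Stim1 and chr5:123014824-123015073 for Orai1.
Atp2b1: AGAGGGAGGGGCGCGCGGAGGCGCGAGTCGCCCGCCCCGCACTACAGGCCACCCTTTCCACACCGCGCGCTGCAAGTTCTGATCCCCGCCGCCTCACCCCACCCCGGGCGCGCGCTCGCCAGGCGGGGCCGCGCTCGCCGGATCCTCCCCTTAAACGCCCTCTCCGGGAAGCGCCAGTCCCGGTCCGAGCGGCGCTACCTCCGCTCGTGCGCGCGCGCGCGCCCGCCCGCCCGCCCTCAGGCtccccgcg
Stim1: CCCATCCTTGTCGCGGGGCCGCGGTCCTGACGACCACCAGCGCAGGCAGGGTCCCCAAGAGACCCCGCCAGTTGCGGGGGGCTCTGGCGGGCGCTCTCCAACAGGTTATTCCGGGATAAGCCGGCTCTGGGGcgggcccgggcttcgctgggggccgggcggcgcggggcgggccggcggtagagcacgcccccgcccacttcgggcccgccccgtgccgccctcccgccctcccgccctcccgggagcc
Orai1: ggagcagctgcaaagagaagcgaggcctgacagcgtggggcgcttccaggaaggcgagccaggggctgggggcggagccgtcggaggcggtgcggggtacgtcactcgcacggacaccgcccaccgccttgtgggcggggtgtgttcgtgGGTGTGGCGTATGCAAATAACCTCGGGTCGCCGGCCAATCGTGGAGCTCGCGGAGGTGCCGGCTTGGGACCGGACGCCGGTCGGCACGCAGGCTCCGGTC

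The PBS peak covered 242 of the 250 bases at Atp2b1, 132 at Stim1 and 100 at Orai1. The vasostatin-2 peak covered all 250 at Atp2b1. G and C made up 78.4% of the bases at Atp2b1, 78.4% at Stim1 and 70.8% at Orai1, against a median of 55.6% over 21263 coding windows, and 62.8% over the windows under a peak in either list. Neither AGGTCA nor its variant GGGTCA was found on either strand of the 3 sequences. In the same 250 bases AGGTCA occurred in 1 of the 34 windows and in 12.8% of all coding windows, GGGTCA in 3 of 34 and 11.6%, and the direct repeat of AGGTCA spaced by 2 bases in 0 of 34 and 0 of 21263. The windows that held a core lay under no peak. For 3 genes the core is shown within 30 bases, on the gene's own strand, which is the minus strand for each of them, with the core in capitals.
Ryr2 (chr13:12107045-12107074): tccttggacttgAGGTCAggaagggcacag
Kcnq5 (chr1:21961979-21962008): gagaccgacttaGGGTCAagccggtattct
Ano1 (chr7:144738628-144738657): cgcggctgcaggTGACCCcgtgacccccgg

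At Ano1 the core reads TGACCC, the other strand of GGGTCA, and a further copy follows within the stretch shown. A match is a description of the letters, and its absence says nothing of binding elsewhere in a peak.

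**Figure D1:**
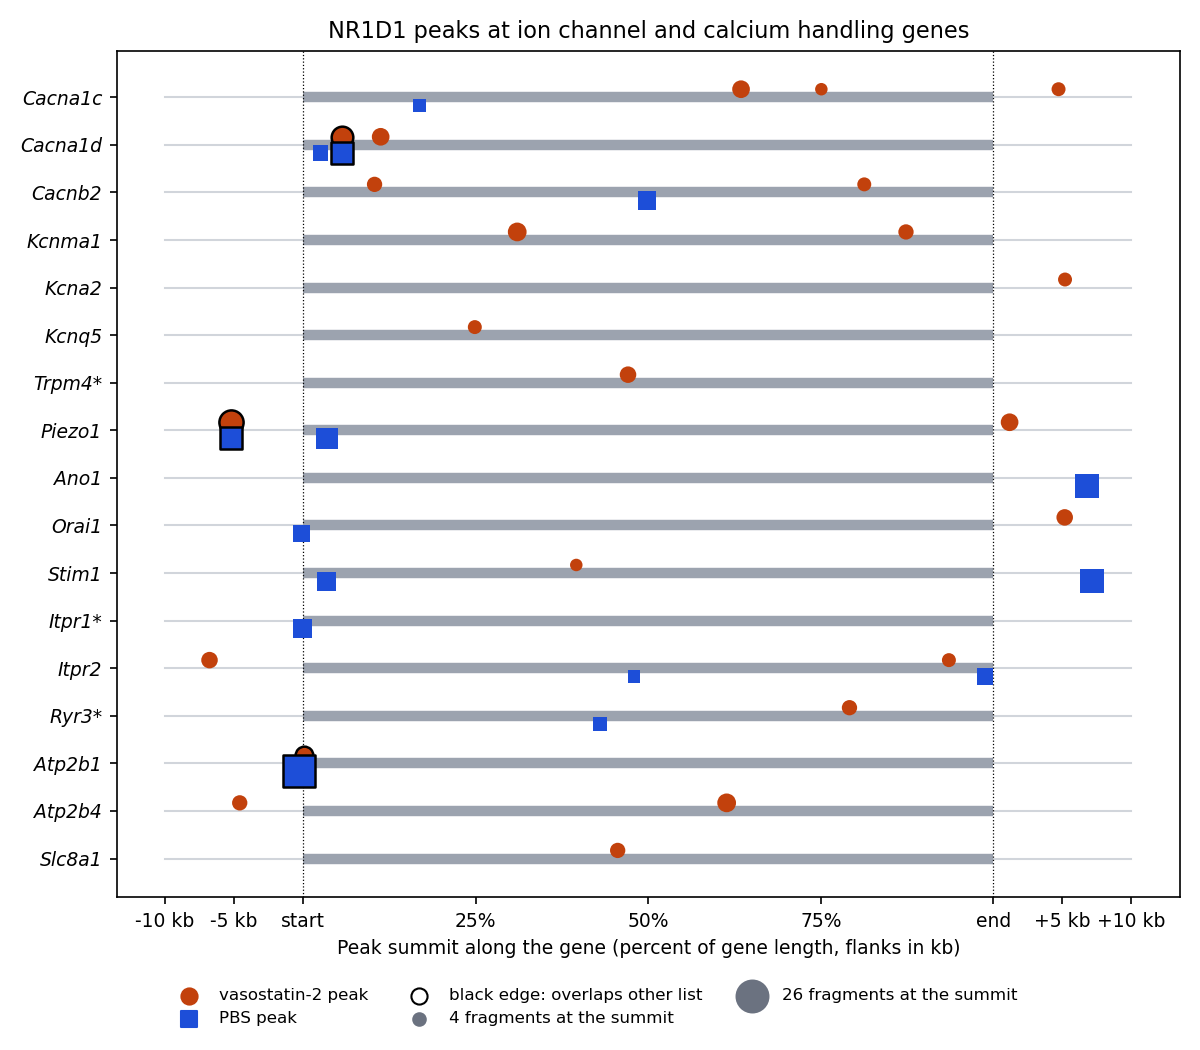
Summits of all peaks at the 17 genes that had any, drawn along each gene from start to end (percent of gene length) and in the 10 kb flanks (kb). Orange circles above the line are the 23 vasostatin-2 peaks and blue squares below it the 15 PBS peaks, the marker area follows the fragments at the summit, and a black edge marks overlap with the other list; for genes with an asterisk no strand was used and the lower coordinate is drawn as the start. Only Cacna1d, Piezo1 and Atp2b1 carry black edges.

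NR1D1 peaks lay at 17 of the 34 genes and 3 sites had a peak in both lists. In the vasostatin-2 list 15 of the 34 genes had a peak and in the PBS list 11, against 28% and 29.5% of all protein-coding genes. In both lists 9 genes had one, 6 in the vasostatin-2 list alone (Kcnma1, Kcna2, Kcnq5, Trpm4, Atp2b4 and Slc8a1), 2 in the PBS list alone (Ano1 and Itpr1) and 17 in neither. Among all coding genes the shares were 17.5%, 10.5%, 12% and 60% in that order. The vasostatin-2 list held 23 peaks in the windows (95% exact Poisson interval 14.6 to 34.5) and the PBS list 15 (8.4 to 24.7). No peak fell into the windows of more than 1 of the genes.

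Other genes of the same length had a peak about as often. Channel genes are long, with 16 of the 34 in the longest of 10 length classes of coding genes (from 108.5 kb) and 11 over 300 kb. In the longest class 51.8% of all coding genes had a peak in the vasostatin-2 list and 43.8% in the PBS list, against 5.39% and 6.94% in the shortest class. When each of the 34 genes is given the share of its length class, 13.8 genes with a peak would be counted in the vasostatin-2 list, against 15 observed, a ratio of 1.08 (0.71 to 1.49 from the Wilson interval of the share). In the PBS list 12.8 would be counted against 11 observed, a ratio of 0.858 (0.508 to 1.30). Both intervals include 1, so at this number of genes no departure from other genes of like length was seen in either list. The intervals treat the genes as alike despite their unequal lengths, so the ratios are descriptions and not tests. By peaks rather than genes, 20.7 were expected from length and 23 found in the vasostatin-2 list, and 17.4 expected and 15 found in the PBS list.

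**Figure D2:**
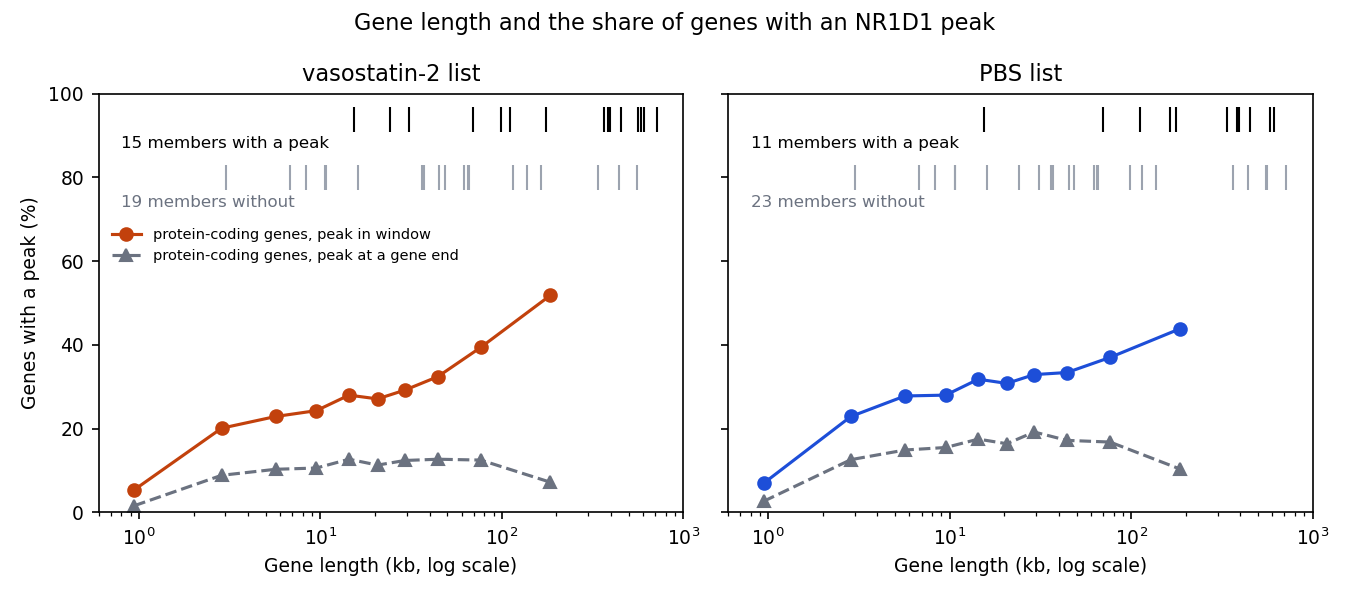
Share of all protein-coding genes with an NR1D1 peak (percent) against gene length (kb, log scale) in 10 classes of equal gene number, with the vasostatin-2 list on the left and the PBS list on the right. The solid line counts peaks in the gene or 10 kb around it and reaches 51.8% and 43.8% in the longest class, the dashed line counts peaks at a gene end and is 7.22% and 10.4% in the longest class, and ticks give the lengths of the 34 genes with and without a peak.

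Within the group the longest genes held most of the peaks but not the highest density. The 11 genes over 300 kb had 14 vasostatin-2 peaks and 8 PBS peaks, or 2.49 and 1.42 per Mb of window, against 2.25 and 1.43 per Mb for the 557 coding genes of that length. The 18 genes under 100 kb had 7 and 3 peaks, or 6.90 and 2.96 per Mb, against 7.24 and 8.17 per Mb for all coding genes under 100 kb. In the PBS list 2 of these 18 genes (Piezo1 and Orai1) had a peak, 11.1%, beside 27.8% of coding genes of that size. The 5 genes between these lengths had 2 and 4 peaks.

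Gene ends, taken as summits within 1 kb of either end of the gene, held few of the peaks. In the vasostatin-2 list 1 of the 34 genes (Atp2b1) had such a summit and in the PBS list 3 (Atp2b1, Orai1 and Itpr1), where 10% and 14.3% of all coding genes had one and 3.28 and 4.64 of 34 were expected from length. This was 1 of 23 peaks in the vasostatin-2 list (4.35%, 95% Wilson interval 0.772 to 21.0) and 3 of 15 in the PBS list (20%, 7.05 to 45.2). Over the windows of all coding genes 28.4% and 39.6% of summits were at the gene's end, with a summit counted once for each gene whose window held it. Ends made up 1.83% of the bases in the windows here and 5.72% for all coding genes.

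Per base, gene ends in the PBS list still held a higher density than gene bodies. The density there was 22.0 summits per Mb (95% exact Poisson interval 4.55 to 64.4) at ends and 1.35 per Mb (0.615 to 2.55) in bodies, and these intervals do not overlap. In the vasostatin-2 list it was 7.35 per Mb (0.186 to 40.9) at ends and 2.24 per Mb (1.25 to 3.70) in bodies. No difference between ends and bodies was detectable there. All coding genes had 26.4 per Mb at ends and 3.23 in bodies in the vasostatin-2 list, and 37.7 and 2.40 in the PBS list. The flanks held 7 vasostatin-2 peaks, 11.4 per Mb (4.60 to 23.6), and 3 PBS peaks, 4.90 per Mb (1.01 to 14.3), beside 6.10 and 6.30 per Mb for all coding genes. For the 27 genes with a known strand, 1 start and 0 far ends had a summit within 1 kb in the vasostatin-2 list, and 2 starts and 0 far ends in the PBS list. Among all 17492 such genes 9.58% and 14.2% of starts had one, against 0.96% and 1.18% of far ends, so the gene-end peaks of the lists are mostly peaks at starts.

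**Figure D3:**
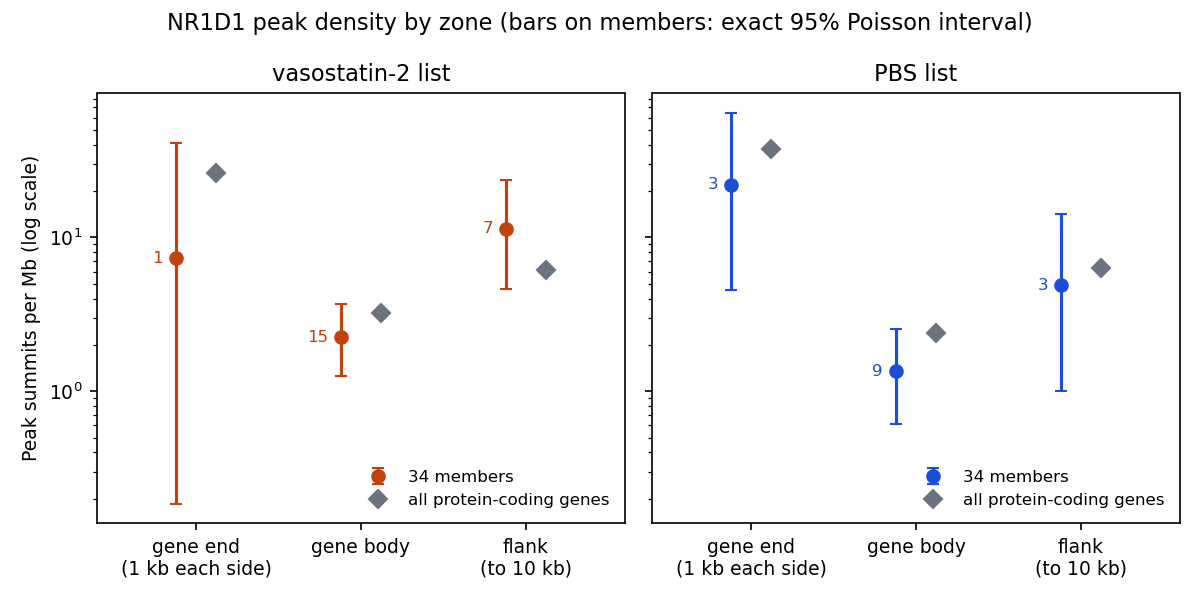
Peak summits per Mb (log scale) at gene ends, in gene bodies and in flanks, with the vasostatin-2 list on the left and the PBS list on the right. Coloured circles are the 34 genes with exact 95% Poisson intervals and their number of summits, and grey diamonds all protein-coding genes; the interval at the ends lies above that of the bodies in the PBS list and spans it in the vasostatin-2 list.

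Atp2b1 carried the strongest peak of the group and the only one at a gene end in both lists. It encodes a plasma membrane calcium pump and lies in a region linked to blood pressure in human. The vasostatin-2 peak (chr10:98914342-98914877) had 8 fragments at its summit (95% exact Poisson interval 3.45 to 15.8), and the PBS peak (chr10:98914051-98914633) 26 (17 to 38.1). The PBS summit was thus the higher, and the intervals do not overlap. The authors' fold enrichment over local background was 5.62 and 11.3, at percentile 63.5 of the vasostatin-2 list and 97.7 of the PBS list. The summits were 460 bp apart: the summit lay 167 bases after the listed start (98914642) in the vasostatin-2 list and 293 bases before it in the PBS list.

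The ratio at Atp2b1 was low beside those of other shared gene-end peaks, but rests on 8 and 26 fragments. After division by the depth factor the log2 ratio of summit fragments (vasostatin-2 over PBS) was -2.10. Among 349 shared peaks at coding gene ends with at least 30 fragments in both lists together and under 100 in PBS, the median was -1.06, and 3 of the 349 (0.86%) were as low as Atp2b1 or lower. The shared peaks at Cacna1d and Piezo1, with log2 ratios of -0.52 and -0.08, were above that median, but they hold under 30 fragments and are not at gene ends. Atp2b1 was singled out as the strongest peak of the group, and 26 of the 34 fragments that took it past the minimum were from PBS. Its rank is therefore a description, and chance was not tested. No interval was computed for the ratio. These ratios set 1 library against the other, and those at other gene ends were mostly below 0 too. The ratio rests on the strongest point of either peak, which here are different positions.

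Of the other genes that remove calcium, none had a peak in the PBS list. With Atp2b1, 3 of the 5 pump and exchanger genes had a vasostatin-2 peak and 1 a PBS peak, where 2.0 and 1.86 were expected from length. Atp2b4, another plasma membrane calcium pump, had 2 vasostatin-2 peaks, with 9 fragments inside the gene (chr1:133740636-133740824) and 6 in the flank 4594 bp from its start. Slc8a1, the sodium-calcium exchanger, had 1 vasostatin-2 peak of 6 fragments near the middle of the gene, 166455 bp from its start. Atp2a2, the pump that refills the sarcoplasmic reticulum, and Pln, which encodes its inhibitor phospholamban, had none in either list. The nearest peaks lay 73.9 kb (vasostatin-2) and 80.7 kb (PBS) from Atp2a2, and 37.7 kb from Pln in both.

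The 2 store-operated entry genes had peaks at their promoters in the PBS list and away from them in the vasostatin-2 list. Each gene had a peak in either list, where 0.797 (vasostatin-2) and 0.757 (PBS) genes were expected from length. Promoter peaks were also commoner in the PBS list over all listed coding genes, at 13.4% against 8.42%. The contrast rests on 2 genes with few fragments and was not tested. Stim1 encodes the calcium sensor of the reticulum, and Orai1 the channel that it opens. At Stim1 the vasostatin-2 peak had 4 fragments (chr7:102330945-102331178), 69570 bp inside the gene, whereas a PBS peak of 9 fragments (chr7:102267295-102267700, 5.49-fold) had its summit 362 bases before the listed start at 102267819. That start lies inside the annotated span, so this peak counts as gene body by the distance to the span's end, which was 5943 bp. A further PBS peak of 15 fragments (8.21-fold) lay in the flank, nearer to an end of Rrm1 (2745 bp), which encodes a subunit of ribonucleotide reductase, than to Stim1.

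Orai1 had 7 fragments in each list but at different places. The vasostatin-2 peak (chr5:123035615-123035857) was in the flank, 5167 bp from the far end of Orai1 and 2179 bp from an end of Morn3. The PBS peak (chr5:123014974-123015488, 4.56-fold) had its summit 100 bases before the Orai1 start. That summit also lay 53 bp from an end of the noncoding RNA gene Gm2479, whose span covers it. The peak could therefore be assigned to either gene.

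Among the release channels the inositol trisphosphate receptor genes differed in where their peaks were. Itpr1 had no vasostatin-2 peak in the window and 1 PBS peak of 9 fragments (chr6:108212931-108213158, 7.09-fold). It lay 35 bp from an end of the gene and 130 bp from an end of the noncoding RNA gene Gm38872. No promoter was listed and no strand used for Itpr1, so this end was not told apart as start or far end. Itpr2 had 2 vasostatin-2 peaks, of 5 and 7 fragments, and 2 PBS peaks, of 7 and 4. None of those at Itpr2 overlapped another, and the nearest pair of the 2 lists was 20592 bp apart. Itpr3 had none in either window. Ryr3, a ryanodine receptor, had 1 vasostatin-2 peak of 6 fragments and 1 PBS peak of 5 fragments, 211667 bp apart, and Ryr2 had none across 553.8 kb.

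Voltage-gated calcium channel genes held 7 vasostatin-2 and 4 PBS peaks, in the same 3 of 7 genes and none at an end. From length 3.14 and 2.81 genes with a peak were expected. Cacna1c encodes the pore of the main L-type channel of arterial muscle. It had vasostatin-2 peaks of 5, 4 and 8 fragments and a PBS peak of 4, and none of the vasostatin-2 peaks lay nearer than 162716 bp to any PBS peak. At Cacnb2, an auxiliary beta subunit, the vasostatin-2 peaks had 6 and 5 fragments and the PBS peak 9 (7.50-fold), which lay at least 121128 bp from either of them. Peaks of the lists thus lay at different places in both genes.

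Cacna1d, the pore of another L-type channel, had the only shared peak inside one of these genes. It had 12 fragments in the vasostatin-2 list (chr14:30465103-30465585, 6.55-fold) and 13 in the PBS list (chr14:30465261-30466134, 5.95-fold), with summits 49 bp apart. The depth-scaled log2 ratio was -0.52. The summits lay 25728 and 25679 bp inside the start, and nearer to an end of Dcp1a, an mRNA decapping factor gene, at 14058 and 14009 bp. A further vasostatin-2 peak had 8 fragments, and a further PBS peak of 6 fragments lay 288 bp from an end of Dcp1a. The T-type pores Cacna1g and Cacna1h and the auxiliary subunits Cacnb3 and Cacna2d1 had no peak in the windows.

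The potassium channel genes had 4 peaks, at 3 of 9 genes, in the vasostatin-2 list and 0 in the PBS list, where 3.06 and 3.02 genes with a peak were expected from length. Kcnma1, the pore of the large-conductance calcium-activated channel, had vasostatin-2 peaks of 6 and 9 fragments inside a gene of 712.8 kb. Kcnq5, a voltage-gated channel active near rest, had 1 of 5 fragments, and Kcna2, another voltage-gated channel, 1 of 5 fragments in the flank beyond its far end. Of the 4 peaks 1 had at least 8 fragments. A count of 0 PBS peaks over 1664 kb of windows allows up to 3 peaks by a one-sided 95% bound. The remaining 6 had none in either list. They are Kcnmb1, the accessory subunit of the Kcnma1 channel, Kcnj8 and Abcc9, the pore and regulatory subunit of the vascular ATP-sensitive channel, the inward rectifier Kcnj2, the voltage-gated Kcna5 and the background channel Kcnk3.

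Of the remaining cation and chloride channels, Piezo1 held a shared peak. Piezo1, a channel opened by membrane stretch, had 15 fragments in the vasostatin-2 list (chr8:122556133-122556715, 6.43-fold) and 12 in the PBS list (chr8:122556314-122556768, 4.93-fold), with summits 20 bp apart. The depth-scaled log2 ratio was -0.08. This site lies 5.2 kb before the Piezo1 start and 203 and 183 bp from an end of the noncoding RNA gene Gm34847, within whose span it falls. A further vasostatin-2 peak of 8 fragments lay 1175 bp past the far end, and a further PBS peak of 12 fragments 2389 bp inside the start.

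Ano1, the calcium-activated chloride channel, had no vasostatin-2 peak and 1 PBS peak of 15 fragments (chr7:144581628-144582377, 7.42-fold). It was 6789 bp from Ano1 and 681 bp from an end of Fadd, an adaptor of death receptors. Trpm4, a cation channel opened by calcium, had 1 vasostatin-2 peak of 7 fragments and no PBS peak. Trpc1, Trpc6 and Trpv4 had none in either list.

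**Figure D4:**
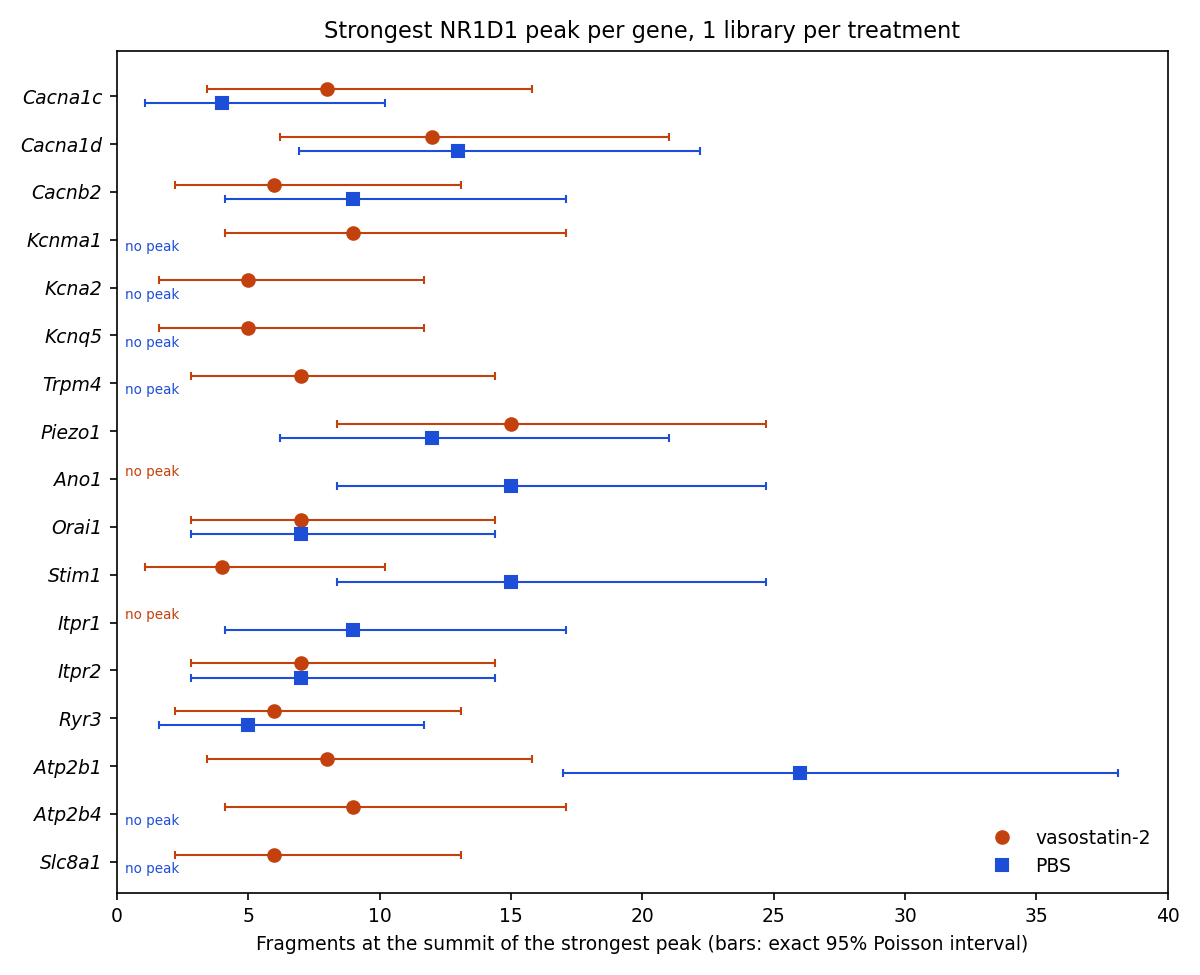
Fragments at the summit of the strongest peak of each gene, with exact 95% Poisson intervals, as orange circles for vasostatin-2 and blue squares for PBS, 1 library each. Atp2b1, with 8 and 26 fragments, is the only gene with a peak in both lists whose intervals do not overlap.

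Between the lists, peaks at these genes overlapped at 3 sites. That was 3 of 23 vasostatin-2 peaks (13.0%, 95% Wilson interval 4.54 to 32.1) and 3 of 15 PBS peaks (20%, 7.05 to 45.2), against 35.8% and 37.1% of all peaks in windows of coding genes. With flanks of 25 kb the shares were 26.5% and 40.9%, so they moved with the width of the window. The median was 6 fragments (range 4 to 15) in the vasostatin-2 list and 9 (4 to 26) in the PBS list, beside 7 and 8 for all peaks in coding windows. Given the share of all peaks in their fragment class, 5.23 and 6.13 shared peaks would be counted, where 3 were found in each list. Of the 20 vasostatin-2 peaks with no counterpart, all had 4 to 9 fragments, and 7 would fall under 4 fragments, the smallest PBS summit, after scaling to the PBS depth. The 12 PBS peaks with no counterpart had 4 to 15. A peak of this size that is missing from the other list is not shown to be absent there.

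The list with more peaks depended on the minimum set for a peak. With at least 8 fragments 6 genes had a peak in the vasostatin-2 list and 7 in the PBS list, and with q under 1e-05 they were 4 and 6. The order of the lists by genes and by peaks was thus turned round by both stricter rules. Over the whole lists, 3935 vasostatin-2 and 3906 PBS peaks had at least 8 fragments, of 8816 and 7377. With q under 1e-05 there were 2320 and 2623, so the whole lists changed order too. Ratios to the length-based count were 0.847 and 0.969 with at least 8 fragments, and 0.866 and 1.15 with q under 1e-05. All of these ratios lay inside the intervals of the main ratios. At gene ends the PBS list had the higher count in each setting tried. The share of shared peaks also changed order, to 37.5% and 33.3% with at least 8 fragments.

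Other genes of calcium and ion transport gave counts near those expected from length. Of 44 such genes 18 had a peak in the window in the vasostatin-2 list and 16 in the PBS list, against 17.4 and 16.4 from length. At gene ends 3 had one in the vasostatin-2 list and 3 in the PBS list, against 4.34 and 6.15 from length, and the 3 genes were the same. These were the chloride transport genes Best3, Clcn3 and Lrrc8a, the last a volume-regulated anion channel. They had 10 and 5, 6 and 9, and 8 and 12 summit fragments (vasostatin-2 and PBS). Of 25 genes for receptors, kinases and other effectors that couple calcium to contraction, 14 had a peak in the vasostatin-2 list and 11 in the PBS list, against 10.3 and 9.50 from length, and 5 and 6 had one at an end, against 2.49 and 3.48.

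Among these effectors, 4 had a gene-end peak in both lists, among them a calmodulin and a calcineurin gene. Calm3, which encodes the calcium sensor calmodulin, had 9 fragments in the vasostatin-2 list and 18 in the PBS list. Ppp3cb, a catalytic subunit of the calmodulin-dependent phosphatase calcineurin, had 13 and 17. Nfatc3, a transcription factor that calcineurin activates, had 12 and 18. Rock1 (7 and 8 fragments) and Rock2 (7 in vasostatin-2 and no gene-end peak in PBS) are kinases that raise calcium sensitivity of contraction. Camk2g, a calmodulin-dependent kinase (12 fragments), and Ppp3ca, another calcineurin subunit (6 fragments), had a gene-end peak in the PBS list and none in the vasostatin-2 list. Rock1, Rock2, Camk2g and Ppp3ca were picked out after their values were seen. The counts are descriptions of 2 libraries, with no test of the lists.

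Markers of other cells were counted in the same windows. Peaks were found at 2 and 1 of 6 endothelial, 1 and 2 of 5 macrophage, 1 and 1 of 4 fibroblast and 2 and 1 of 6 cardiomyocyte and neuron markers (vasostatin-2 and PBS), against 1.14 to 2.35 and 1.27 to 2.22 from length. Their part in the counts at the channel genes was not tested.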

How the data were processed

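NR1D1 CUT&Tag peak lists of 1 vasostatin-2 and 1 PBS library were used. Trimmomatic 0.39, BWA 0.7.17 and MACS2 2.2.7.1 and build mm10 are named in the submitters' processing notes, without roles or settings. Each list has 10 columns, no header and 1 library, with nothing pooled. Fold enrichment, as deposited, is a ratio of summit to local background. For each summit the authors deposited a p-value and a q-value, both as -log10; the smallest -log10 q was 1.31 (vasostatin-2) and 1.32 (PBS). The deposited score is 10 times the -log10 q rounded down and was not used. All of these are the authors' own; starts, ends and summits are their positions, in bp, written from 1.

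Summit fragments were solved from fold and -log10 p by the caller's Poisson formula (100% of peaks within 0.0005). Depth came from the background floor and its steps, read as 1 fragment over an assumed window of 10000 bp. Whether the IgG libraries served as background is not given in the sources used here.

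Genes came from RefSeq GRCm38.p6 spans. Peaks touching a span or its 10 kb flanks by 1 bp counted, and lists were compared by 1 bp overlap. Length correction gave each gene the share of its class (10 classes). Intervals are 95% Wilson or exact Poisson. The recovery, overlap (against bedtools 2.31.1) and length steps were tested on simulated data. Python 3.11.15, scipy 1.17.1 and pandas 2.3.3 were used. All 34 genes are named, with each peak or its absence. Of 69 other calcium genes those with a gene-end peak in both lists were to be named, up to 6 by fold. Rock1, Rock2, Camk2g and Ppp3ca were named beyond this rule. The genes and lists were chosen with earlier results of these data known. The 250 bases before starts were searched for motifs. The core of a further window is not reported here.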

Additional observations from a re-analysis of the deposited data

How the results depend on the processing

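No paired analysis was possible because each treatment has 1 NR1D1 library, and for the same reason no library could be left out. Of 84 values recomputed under other settings 69 stayed inside their interval or within 1.5 times the reported count and 15 did not. With q under 1e-05, 4 genes with 4 peaks were left in the vasostatin-2 list (0.538 per Mb, 0 genes and 0% of peaks at an end) and 6 genes with 6 peaks in the PBS list (0.807 per Mb). With at least 8 fragments there were 6 genes with 8 peaks in the vasostatin-2 list (1.08 per Mb, 37.5% shared) and 7 genes with 9 peaks in the PBS list. With a gene end of 3 kb, 2 genes had a vasostatin-2 peak there. Stricter rules leave fewer peaks by construction. Why the lists changed order under them was not tested. Ratios to the length-based count ranged from 0.847 to 1.27 in the vasostatin-2 list and from 0.841 to 1.15 in the PBS list over all alternatives. Summits of 4 to 9 fragments, 21 of 23 vasostatin-2 and 9 of 15 PBS peaks, limit every statement on a single peak.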

Other observations

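Peaks also lay beyond the windows, between 10 and 25 kb from the genes, and 6 of these sites were shared by both lists. The nearest beyond the limit was a shared peak 10.8 kb (vasostatin-2, 11 fragments) and 10.6 kb (PBS, 19 fragments) from Stim1. Its summits were only 424 and 445 bp from an end of Rhog. The farthest inside the limit was the PBS peak of 15 fragments with its edge 7046 bp from Stim1. A shared peak of 11 and 16 fragments lay 18.3 and 18.2 kb from Itpr1 with no coding gene end nearer than that of Itpr1. Itpr3 had a shared peak of 13 fragments in either list 18.2 and 18.1 kb away, near Ggnbp1, and another of 10 and 8 fragments near Ip6k3. Cacnb3 had a shared peak of 11 and 9 fragments 15.6 and 15.4 kb away, near an end of Adcy6. The nearest peak to Kcnj2 was 454.8 kb (vasostatin-2) and 459.4 kb (PBS) away, to Trpc6 215.8 and 779.7 kb, and to Ryr2 224.6 and 432.6 kb.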
